A study of Mus musculus with 3 samples.

Results

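The insulin-like growth factor (IGF) axis was examined in mouse embryonic stem (ES) cells depleted of NUP153, a nucleoporin of the nuclear pore basket, through 8 genes: the ligand gene Igf1, the receptor gene Igf1r, and 6 binding protein genes, Igfbp2, Igfbp3, Igfbp4, Igfbp5, Igfbp6 and Igfbp7. They were taken by gene symbol, as IGF axis genes outside the imprinted ones, and all 8 were found among the 24421 genes of the deposited counts. Total RNA depleted of ribosomal RNA was sequenced from the female line EL 16.7 (strain background F2:129S1/CastEiJx 129S1), with 1 library per condition. Control cells received a scramble shRNA by lentivirus and are labelled wild type, KD-1 cells received NUP153 shRNA-1, and KD-2 cells received NUP153 shRNA-2. Cells of all 3 libraries were grown with serum and LIF on a layer of γ-irradiated mouse embryonic fibroblasts from Tg(DR4)1Jae/J mice, which carry drug resistance genes, and all were selected with puromycin after transduction. Each library is a transduced bulk culture, and whether the feeder fibroblasts were removed before RNA extraction is not given in the sources used here. With 1 library per condition no comparison of conditions has a replicate check, and the intervals below cover the counting of reads only.

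IGF1 and IGF2 are small secreted growth factors that bind the receptor tyrosine kinase IGF1R, which signals through IRS adaptors to PI3K and AKT and favours growth and survival. IGF binding proteins are secreted proteins that hold the ligands outside the cell, extend their life, and either keep them from the receptor or release them beside it when proteases cut the binding protein. In ES cell culture both the stem cells and fibroblast feeders can secrete components of this axis.

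The total of reads on genes was 72344726 in control cells, 85258834 in KD-1 cells and 69839336 in KD-2 cells. Nup153 itself (chr13:46679905-46727940, minus strand, GRCm38) had 27870 reads in control cells, 16451 in KD-1 cells and 11126 in KD-2 cells, so that after scaling the KD-1 library held 0.504 and the KD-2 library 0.371 of the control level. All 12 ES cell markers were detected in every library, at 127 reads or more in control, with a summed level of 3611 RPKM in control cells, 4101 in KD-1 cells and 2860 in KD-2 (RPKM, reads scaled by exon length and by the library's reads on genes). All 18 fibroblast markers were also detected in every library, and their summed level was 370.5 RPKM in control cells, 201.5 in KD-1 cells and 742.5 in KD-2. Of the other cell types considered, the 5 endothelial markers ranged from 3 to 2445 reads in control and the 9 endoderm markers from 2 to 361, with Cdh5, Emcn, Afp, Ttr and Foxa2 at 11 reads or fewer in every library and Pecam1 and Dab2 the highest. The libraries therefore differed in fibroblast transcripts as well as in Nup153, and fibroblast marker values are set beside the results below, whether or not both go the same way. In bulk RNA, fewer cells of a type and less RNA per cell cannot be told apart.

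The 6 binding proteins, the ligand and the receptor covered a wide range of mRNA levels, which were compared between genes on the RPKM scale. In control cells Igfbp2, which binds both IGFs, stood far above the others at 88.3 RPKM, rank 851 of 23983 genes. Igfbp4, a binding protein known mostly as an inhibitor of IGF action, followed at 14.6 RPKM. Igfbp7, a relative that binds IGFs weakly, was at 5.38 RPKM, Igfbp3, the main carrier of IGFs in the circulation, at 4.54 RPKM, Igf1r at 3.41 RPKM and Igfbp6, which prefers IGF2, at 2.63 RPKM. Igf1 at 0.243 RPKM and Igfbp5 at 0.170 RPKM were the lowest, ranks 13945 and 14631. KD-1 cells kept this order, and in KD-2 cells it differed by 1 exchange, with Igfbp6 (6.31 RPKM) above Igf1r (5.52 RPKM). With 1 library per condition the spread behind these levels is unknown, so neighbours such as Igfbp3 and Igf1r in KD-1 (3.82 and 3.52 RPKM) cannot be ordered firmly. The place of Igf1r also depended on the exon set used for its length. It was at 2.32 RPKM in control with the comprehensive exon set, which put it below Igfbp6.

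**Figure D1:**
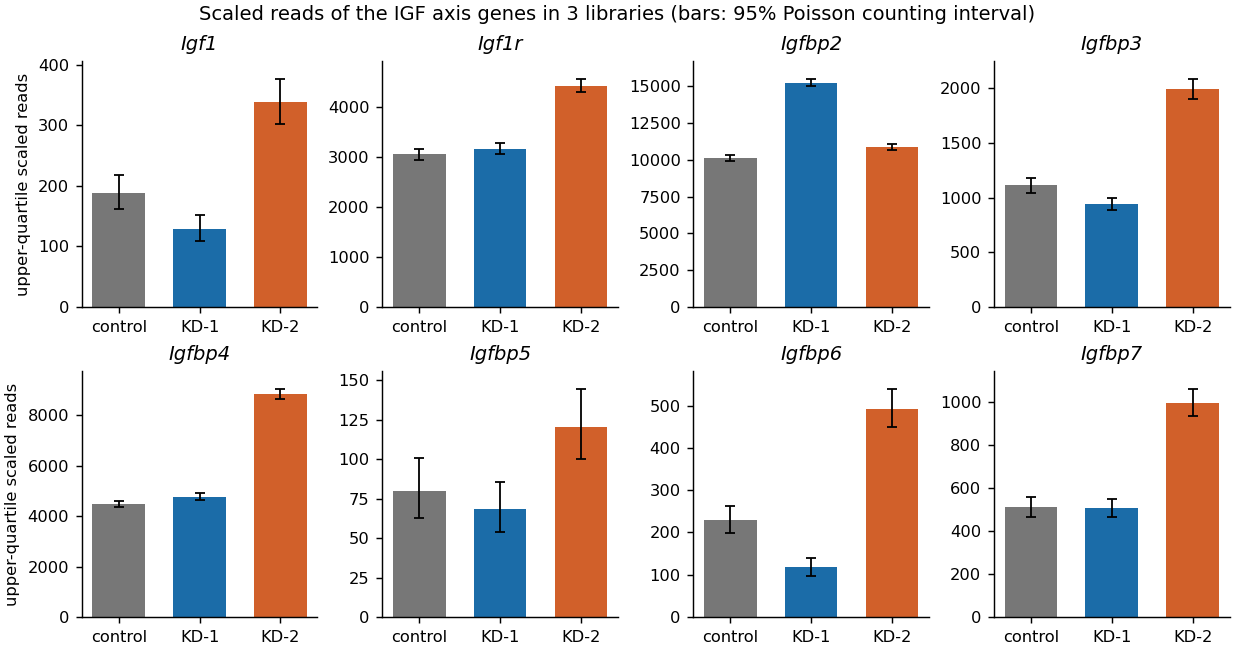
Reads of each of the 8 genes after upper-quartile scaling (vertical axis, starting at 0 and different for each gene) in the control, KD-1 and KD-2 libraries; bars are 1 library each and error bars are exact 95% Poisson intervals of the reads. KD-2 is the tallest bar for 7 genes, and KD-1 is the tallest for Igfbp2.

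Each knockdown library was compared to control by the log2 ratio of scaled reads with a pseudocount of 0.5 reads, and a gene was taken as past the fold when its fold change was above 1.5 in either direction, among the 16670 genes whose reads averaged at least 10 per library. All 8 genes passed this minimum. In KD-2, 6 of the 8 genes were past the fold on the higher side (Igf1, Igfbp3, Igfbp4, Igfbp5, Igfbp6 and Igfbp7) and 0 on the lower side, while 17.1% of all genes were past it on the higher side and 10.2% on the lower side. The median log2 ratio of the 8 genes in KD-2 was 0.84, and that of all genes was -0.02. Of the 18 fibroblast markers, 16 were past the fold on the same side in KD-2, with a median of 0.78, and their part in the result was not tested. In KD-1, 1 gene was past the fold on the higher side (Igfbp2) and 1 on the lower side (Igfbp6), against a background of 8.63% and 5.62% of all genes. The median of the 8 genes in KD-1 was -0.12, that of all genes was 0.02, and that of the fibroblast markers was -0.60. The 2 comparisons share the control library, so they are not independent of each other. The split of all genes past the fold depended on the scaling: 2847 were higher and 1700 lower in KD-2 after upper-quartile scaling, and 3942 were higher and 820 lower when scaled by library totals, which moved the median of all genes by 0.16. With library totals 7 of the 8 genes were past the fold on the higher side in KD-2.

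Igf1 encodes the ligand (chr10:87858265-87937042, plus strand). It had 174 reads in control cells, 139 in KD-1 cells and 336 in KD-2 cells. KD-2 was the high library and KD-1 the low one, and the counting intervals of the scaled reads overlapped in no pair of libraries. The log2 ratio to control was 0.84 in KD-2 (95% interval 0.57 to 1.11) and -0.55 in KD-1 (-0.88 to -0.22), the latter within 1.5-fold. With DESeq2's size factors the KD-1 ratio was -0.62 and past the fold.

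Igf1r encodes the receptor that binds both ligands (chr7:67952827-68233668, plus strand). Its reads numbered 2816 in control cells, 3421 in KD-1 cells and 4394 in KD-2 cells. Control and KD-1 lay close together and KD-2 was higher. The log2 ratio was 0.05 in KD-1 (95% interval -0.02 to 0.12), and it was -0.01 with DESeq2's size factors. In KD-2 it was 0.53 (0.47 to 0.60), a fold change of 1.45, just under the threshold. Scaled by library totals, the KD-2 ratio was 0.69 and past the fold.

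Igfbp2 was the most abundant of the 8 genes in every library (chr1:72824503-72852474, plus strand). It had 9328 reads in control cells, 16506 in KD-1 cells and 10838 in KD-2 cells. Unlike the other 7 genes, it was highest in KD-1. The log2 ratio to control was 0.59 in KD-1 (95% interval 0.56 to 0.63), a fold change of 1.51 that was just past the threshold. This call was lost with TMM scaling, where the ratio was 0.58, and with DESeq2's size factors, where it was 0.53. In KD-2 the log2 ratio was 0.11 (0.07 to 0.15).

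Igfbp4 and Igfbp7 were near the control level in KD-1 and near 2-fold of it in KD-2. Igfbp4, the target of the protease PAPP-A (chr11:99041244-99054392, plus strand), had 4140 reads in control cells, 5160 in KD-1 cells and 8798 in KD-2 cells. Its log2 ratio was 0.09 in KD-1 (95% interval 0.03 to 0.15) against 0.98 in KD-2 (0.93 to 1.03), a fold change of 1.97. Igfbp7 (chr5:77349240-77408041, minus strand) had 471 reads in control cells, 547 in KD-1 cells and 991 in KD-2 cells. Its log2 ratio was -0.01 in KD-1 (-0.19 to 0.17), where the sign turned under another upper-quartile scaling, and 0.97 in KD-2 (0.81 to 1.13), a fold change of 1.95. For both genes control and KD-1 formed the low side and KD-2 stood above them. The exons of Igfbp7 overlap Polr2b, which lies on the opposite strand, over 85 bases, and since the strand used in counting is not given in the sources used here, reads on these bases cannot be assigned with certainty.

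Igfbp3, Igfbp5 and Igfbp6 were above control in KD-2 and below it in KD-1. Igfbp3 (chr11:7206086-7213923, minus strand) had 1027 reads in control cells, 1018 in KD-1 cells and 1982 in KD-2 cells. Its log2 ratio was -0.24 in KD-1 (95% interval -0.37 to -0.11) against 0.84 in KD-2 (0.73 to 0.95), a fold change of 1.79. The KD-2 library was the high one, and KD-1 lay slightly below control.

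Igfbp6 was farthest from control in both knockdown libraries (chr15:102144362-102149511, plus strand). It had 212 reads in control cells, 127 in KD-1 cells and 490 in KD-2 cells. All 3 libraries were apart by more than their counting intervals, with KD-2 at the top and KD-1 at the bottom. The log2 ratio was -0.96 in KD-1 (-1.30 to -0.64), or 0.512 of control, against 1.10 in KD-2 (0.87 to 1.34), a fold change of 2.14. It was the 1 gene of the 8 past 2-fold in KD-2 with this scaling, while Igfbp4 and Igfbp7 were past it too under each of the other scalings run, at 1.02 and 1.01 with TMM.

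Igfbp5, a binding protein known from bone and muscle, had few reads in this culture (chr1:72857932-72874884, minus strand). It had 74 reads in control cells, 74 in KD-1 cells and 120 in KD-2 cells. The log2 ratio was -0.23 in KD-1, with an interval that holds 0 (-0.71 to 0.26), and 0.59 in KD-2 (0.16 to 1.03), a fold change of 1.503 just past the threshold. With a pseudocount of 5 reads the KD-2 ratio was 0.56 and no longer past it. Igfbp5 is the chromosomal neighbour of Igfbp2, with 5457 bases between their ends and the genes facing each other, and the pair had different values: the KD-1 ratio was past the fold for Igfbp2 and not for Igfbp5, and the KD-2 ratio for Igfbp5 and not for Igfbp2. The neighbour of Igfbp3, Igfbp1, lies 3539 bases away and had 0, 2 and 2 reads, too few for a ratio.

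**Figure D2:**
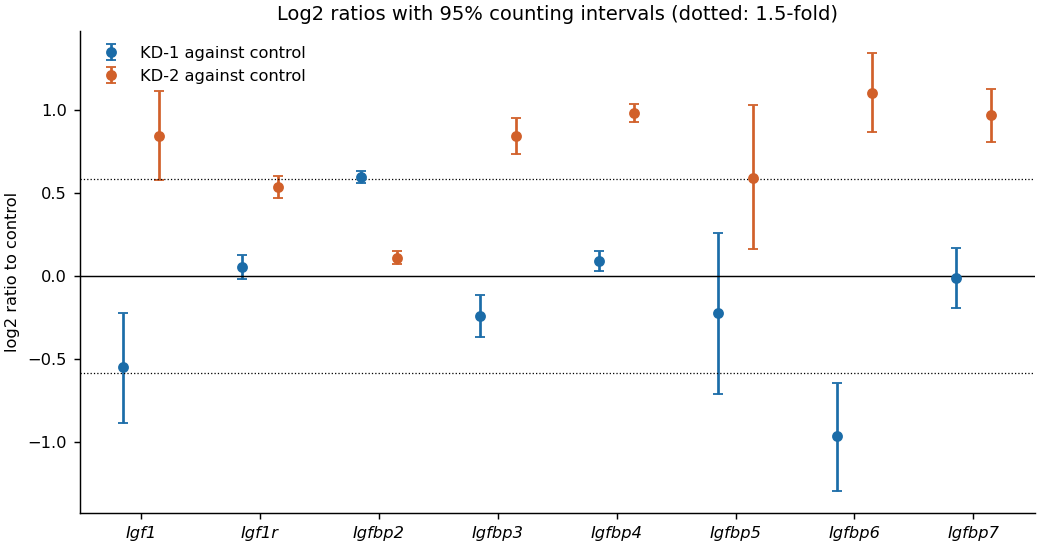
Log2 ratio of KD-1 and of KD-2 to control (vertical axis) for the 8 genes, with 95% counting intervals and dotted lines at 1.5-fold; each point compares 1 library with the 1 control library. KD-2 points of 6 genes lie above the upper dotted line, and for Igfbp2 the KD-1 point lies higher than the KD-2 point.

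The bases just upstream of the transcription start are shown for Igfbp2, the gene past the fold on the higher side in KD-1, and for the 4 binding proteins with a KD-2 ratio over 0.8, to show whether these promoters look alike. They are the 120 bases before the RefSeq start (GRCm38.p6), which for Igfbp2, Igfbp6 and Igfbp7 is not the GENCODE gene start given above and for Igfbp6 lies upstream of it by more than the length of the window, 5′ to 3′ on the strand of the gene: chr1:72824360-72824479 for Igfbp2 (plus), chr11:7213924-7214043 for Igfbp3 (minus), chr11:99041124-99041243 for Igfbp4 (plus), chr15:102144066-102144185 for Igfbp6 (plus) and chr5:77408046-77408165 for Igfbp7 (minus). Capitals mark the TATA box, spelled here with the letters TATAAA, and the GC box, spelled here with the letters GGGCGG. Each was searched on both strands, so that a GC box on the other strand reads CCGCCC.
Igfbp2: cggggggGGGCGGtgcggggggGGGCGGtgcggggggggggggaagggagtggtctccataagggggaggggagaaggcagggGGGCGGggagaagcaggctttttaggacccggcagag
Igfbp3: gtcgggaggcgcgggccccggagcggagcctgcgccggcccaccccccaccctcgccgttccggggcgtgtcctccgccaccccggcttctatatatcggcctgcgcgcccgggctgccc
Igfbp4: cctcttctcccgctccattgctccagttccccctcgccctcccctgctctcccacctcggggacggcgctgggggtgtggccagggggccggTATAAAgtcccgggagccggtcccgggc
Igfbp6: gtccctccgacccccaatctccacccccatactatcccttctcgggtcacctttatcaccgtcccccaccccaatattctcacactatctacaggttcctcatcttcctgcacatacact
Igfbp7: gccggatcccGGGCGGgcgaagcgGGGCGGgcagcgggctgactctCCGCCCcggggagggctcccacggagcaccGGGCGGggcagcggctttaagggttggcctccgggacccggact
Igfbp2 held 3 GC boxes and Igfbp7 held 4. Igfbp4 held a TATA box that starts 28 bases before the transcription start. Igfbp3 and Igfbp6 held neither string of letters. The base composition also differed, with 79.2% G and C in Igfbp3 and 53.3% in Igfbp6, and 17 and 3 CpG dinucleotides. The 4 binding proteins with a KD-2 ratio over 0.8 thus shared neither motif in this window. Among 32851 RefSeq promoters, TATAAA was found in 6.34% and GGGCGG in 26.5% of windows of this length. A match is a description of the letters, and its absence says only that these letters are not in this window.

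The makeup of binding protein mRNA was then compared between libraries as each gene's share of the summed RPKM of the 6 binding proteins. This sum was 115.6 RPKM in control cells, 158.6 in KD-1 cells and 165.8 in KD-2. Igfbp2 made up 76.4% of it in control cells, 83.6% in KD-1 cells and 64.1% in KD-2 cells. Igfbp4 made up 12.6%, 9.72% and 19.4% in the same order. The high sum in KD-1 was thus mostly Igfbp2, while in KD-2 more of it came from the other 5. Igfbp7 made up 4.66% in control cells, 3.35% with KD-1 and 7.08% with KD-2, and Igfbp6 made up 2.28%, 0.844% and 3.81%. Igfbp3 was 3.92%, 2.40% and 5.47%, and Igfbp5 stayed under 0.2% in every library. Shares are free of the scaling between libraries, but they rest on the exon lengths.

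The knockdown libraries were also compared with each other, which does not use the control library. Igf1, Igfbp3, Igfbp4, Igfbp5, Igfbp6 and Igfbp7 were past the fold with KD-1 lower than KD-2, and 0 of the 8 genes with KD-1 higher, where 16.1% and 13.9% of all genes were. The median log2 ratio of KD-1 to KD-2 was -0.93 over the 8 genes and 0.12 over all genes. Of the 18 fibroblast markers, 17 were past the fold with KD-1 lower, with a median of -1.60, and their part in the result was not tested. Igfbp6 differed most, with a log2 ratio of -2.06 (95% interval -2.36 to -1.79). Igf1 followed at -1.39 (-1.69 to -1.11), Igfbp3 at -1.08 (-1.19 to -0.97) and Igfbp7 at -0.98 (-1.13 to -0.83). Igfbp4 was at -0.89 (-0.94 to -0.84) and Igfbp5 at -0.81 (-1.26 to -0.39). Igf1r at -0.48 (-0.55 to -0.42) and Igfbp2 at 0.49 (0.45 to 0.52) were within 1.5-fold. With library totals or DESeq2's size factors Igf1r was past the fold as well, at -0.65 and -0.59. The scaling also moved the split of all genes, from 2322 higher and 2691 lower to 1229 and 3526 with library totals, 1555 and 3172 with DESeq2's size factors, and 1879 and 2964 with TMM scaling.

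When KD-1 and KD-2 were taken as a group against control with edgeR's quasi-likelihood test, 0 of the 8 genes passed an adjusted p of 0.05. All 8 fold changes were above 0, from a log2 value of 0.26 for Igfbp5 to 0.62 for Igfbp4, and the unadjusted p was 0.13 for Igfbp4 and higher for the other 7, with an adjusted p of 0.9998 for each. With 1 residual degree of freedom, its spread rests on the difference between both knockdown libraries. It called 4 of 21164 genes (0.0189%), 293 genes had an unadjusted p under 0.05, and no member of the 8 was among these. The Wald test of DESeq2 called 2 genes, 82 genes had an unadjusted p under 0.05 in it, and it called 0 of the 8. Nup153 had a log2 fold change of -1.19 with an unadjusted p of 0.00315, and its adjusted p in edgeR's test was also 0.9998.

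Markers of fibroblasts, the feeder cell type, were high in KD-2, as 5 of the 6 binding proteins were, and low in KD-1, where 1 of the 6, Igfbp6, was past the fold on the lower side. Of the 18 markers, 16 were past the fold on the higher side and 0 on the lower side in KD-2, with a median log2 ratio of 0.78 and a range of 0.37 to 1.58, where 17.1% and 10.2% of all genes were past it. In KD-1, 9 of 18 were past the fold on the lower side and 0 on the higher side, with a median of -0.60 and a range of -2.01 to 0.08, where 5.62% and 8.63% of all genes were past it. Col3a1, a collagen of fibroblasts, had 54628 reads in control cells, 25523 in KD-1 cells and 114064 in KD-2 cells. Postn, a matrix protein, had 6547, 1902 and 11277 reads. KD-2 was the high and KD-1 the low library for both. The part of fibroblast RNA in these differences was not tested.

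ES cell markers differed less between libraries. In KD-1, 1 of 12 was past the fold on the higher side, with a median log2 ratio of 0.15, near the background of 8.63%. In KD-2, 1 was past it on the higher and 2 on the lower side, with a median of -0.30, where 17.1% and 10.2% of all genes were. The gene on the higher side in both was Utf1, a chromatin protein of pluripotent cells with 127, 240 and 308 reads, and the 2 on the lower side in KD-2 were Zfp42 (Rex1) at -0.70 and Tdgf1, a NODAL co-receptor, at -0.61. Of 9 endoderm markers 5 had a mean of at least 10 reads, of which 1 was past the fold on the higher side in KD-1 against 2 in KD-2. Their highest count was 604 reads, for Dab2 in KD-2. Of 5 endothelial markers 3 had a mean of at least 10 reads, and 1 of these, Kdr, was past the fold on the higher side in both knockdown libraries. With so few genes, these counts are not read against the background (8.63% for KD-1, 17.1% for KD-2). Pecam1 and Tek, which are not restricted to endothelium, had over 1000 reads in each library while Cdh5 was nearly absent. The part of these cell types in the IGF axis values was not tested.

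**Figure D3:**
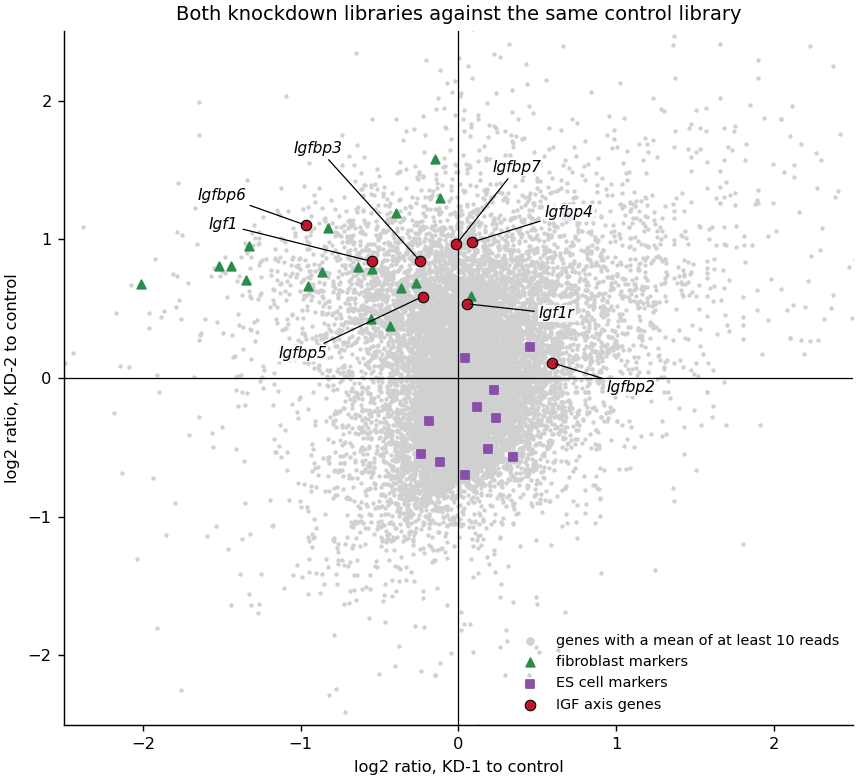
Log2 ratio of KD-1 to control (horizontal axis) and of KD-2 to control (vertical axis) for 16613 genes averaging at least 10 reads per library (57 genes lie beyond the axes), with the 8 IGF axis genes, 18 fibroblast markers and 12 ES cell markers marked. Both axes share the control library, and 5 of the 8 genes lie in the upper left part with 17 of the 18 fibroblast markers, while Igfbp2 lies to the right.

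Genes whose pattern was most like that of a member were found by the distance between pairs of log2 ratios (KD-1 and KD-2 to control) among 12742 genes that averaged at least 100 reads per library. Igfbp5 was below this minimum. Igfbp6 had the sparsest surroundings, with 6 genes within a distance of 0.1, and its nearest were Rhoj (0.0485), a small GTPase, Ctso (0.0714), a cathepsin, and Adamts1 (0.0736), a secreted protease. Igf1r had the densest, with 197 genes, and was nearest to Slc17a5 and Mical2. Nearest to Igf1 were Dram1 (0.0221), Plxdc2 (0.0289) and Scx (0.0303), a transcription factor of tendon cells. Nearest to Igfbp3 were Enpp5, Hoxa11os and Rnf166, and nearest to Igfbp4 were Rhog (0.00434), Gdpd5 and Nrg1. Igfbp7 lay nearest to Serping1, the complement C1 inhibitor, Pde7b and Arhgef17. Igfbp2 lay nearest to St6gal1, Limk1 and Nlrc4, with 51 genes within 0.1. With 3 libraries and a shared control, nearness is a match of this pair of ratios only, and how many genes would lie this near without a link was not tested.

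The other genes of the axis were taken from a list of 51 by role, of which 45 had a mean of at least 10 reads. In KD-2, 19 of the 45 were past the fold on the higher side and 0 on the lower side, where 17.1% and 10.2% of all genes were. The median log2 ratio of the 45 in KD-2 was 0.31. Fibroblast markers were past the fold on the higher side for 16 of 18 in KD-2, with a median of 0.78, and their part was not tested. In KD-1, 2 of the 45 were past the fold on the higher side (Igfbpl1 and Irs2), where 8.63% of all genes were. On the lower side were 4 (Igf2, Kazald1, Pappa and Stc1), where 5.62% of all genes were. The median of the 45 in KD-1 was 0.02. Between KD-1 and KD-2, 3 were higher in KD-1 and 19 lower, with a median of -0.34, where 13.9% and 16.1% of all genes were. The wider axis thus stood nearer to all genes than the 8 did in each of these comparisons.

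Among ligands and hormone input, Igf2, the imprinted ligand gene, had far more reads than Igf1, with 10646 in control cells, 7782 in KD-1 cells and 22852 in KD-2 cells. Per length it was at 28.0, 17.4 and 62.3 RPKM. Its log2 ratio was -0.68 in KD-1 against 0.99 in KD-2, past the fold on opposite sides. Ghr, the growth hormone receptor, had 982, 879 and 1628 reads, with ratios of -0.39 and 0.62. The insulin genes Ins1 and Ins2 had 0 reads in every library, and Gh, growth hormone, had 3, 6 and 4. Among receptors, Igf2r, the imprinted receptor that carries IGF2 to lysosomes, had 23626, 19528 and 38356 reads, with ratios of -0.50 and 0.59. Lrp1, a scavenger receptor that also binds IGFBP3, had ratios of 0.17 and 0.90. Insr, the insulin receptor, had 1866, 2805 and 2299 reads and was within 1.5-fold in both, at 0.36 and 0.19.

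Of the relatives of the binding proteins, 4 of 6 were past the fold on the higher side in KD-2, where 17.1% of all genes were. Crim1, a transmembrane protein with an IGFBP-like motif, had 1334 reads in control cells, 1303 in KD-1 cells and 2893 in KD-2 cells, with a KD-2 ratio of 1.01. Kazald1 (0.77), Htra1 (0.75), a secreted serine protease, and Esm1 (0.65), endocan, were the others. In KD-1, Kazald1 was past the fold on the lower side at -0.69. Esm1 at -0.34, Crim1 at -0.26 and Htra1 at 0.43 were within it in KD-1. Igfbpl1 differed from them. It had 125, 255 and 137 reads, with a ratio of 0.80 in KD-1 against 0.03 in KD-2, and so was past the fold in the same library as Igfbp2.

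Of the proteases that cut binding proteins and the inhibitors of these, 3 of 6 were past the fold on the higher side in KD-2 (17.1% of all genes) and 2 on the lower side in KD-1 (5.62% of all genes). Pappa, which encodes the protease PAPP-A that releases IGFs from IGFBP4, had 753 reads in control cells, 439 in KD-1 cells and 1479 in KD-2 cells. Its ratio was -1.01 in KD-1 against 0.87 in KD-2. Stc1, which encodes the PAPP-A inhibitor stanniocalcin-1, had 898, 488 and 1730 reads, with ratios of -1.11 and 0.84. Both were low in KD-1 and high in KD-2. Pappa2, which cuts IGFBP3 and IGFBP5, had 129, 159 and 317 reads, with ratios of 0.07 and 1.19. Other listed genes, named here after their values were seen, were within 1.5-fold. The protease gene Adam12 was on the same sides of control, at -0.52 with KD-1 against 0.58 with KD-2. Stc2, which encodes the inhibitor stanniocalcin-2, was at 0.10 in both libraries, and Adam28, a membrane protease, was at 0.38 in KD-1 cells against -0.41 in KD-2 cells.

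Among 25 adaptors and signal transducers, 8 were past the fold on the higher side in KD-2 and 1 in KD-1, where 17.1% and 8.63% of all genes were. On the lower side were 0 in either, where 10.2% and 5.62% of all genes were. With so few genes, the KD-1 counts are not read against the background. Irs1 and Irs2, which encode adaptors that dock to the receptor, had the highest KD-2 ratios of this group, while Irs4, with 33 reads or fewer in each library, was at -0.37. Irs1 had 1243 reads in control cells, 1450 in KD-1 cells and 2849 in KD-2 cells, with ratios of -0.01 and 1.09, and the sign of the first depended on the scaling. Irs2 had 224, 407 and 617 reads, with ratios of 0.63 and 1.35, and with DESeq2's size factors its KD-1 ratio was 0.57 and within the fold. Irs2 was the 1 listed gene past the fold on the higher side in both libraries. Grb10, an imprinted adaptor that restrains the receptor, was at -0.43 in KD-1 against 0.71 in KD-2. The PI3K regulatory subunits Pik3r1 and Pik3r2 were at 0.65 and 0.87 in KD-2, Akt1 at 0.70, and Foxo3, a transcription factor that AKT holds out of the nucleus, at 0.90. The eighth, Irs3, had 16 reads or fewer in each library. The 17 within the fold in KD-2 ranged down to -0.48 and include the kinase genes Mtor and Akt2, at 0.09 and 0.27. The 3 Igf2bp genes, which encode proteins that bind Igf2 mRNA, were all within 1.5-fold, between 0.12 and 0.29 in KD-1 and between -0.36 and -0.02 in KD-2.

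**Figure D4:**
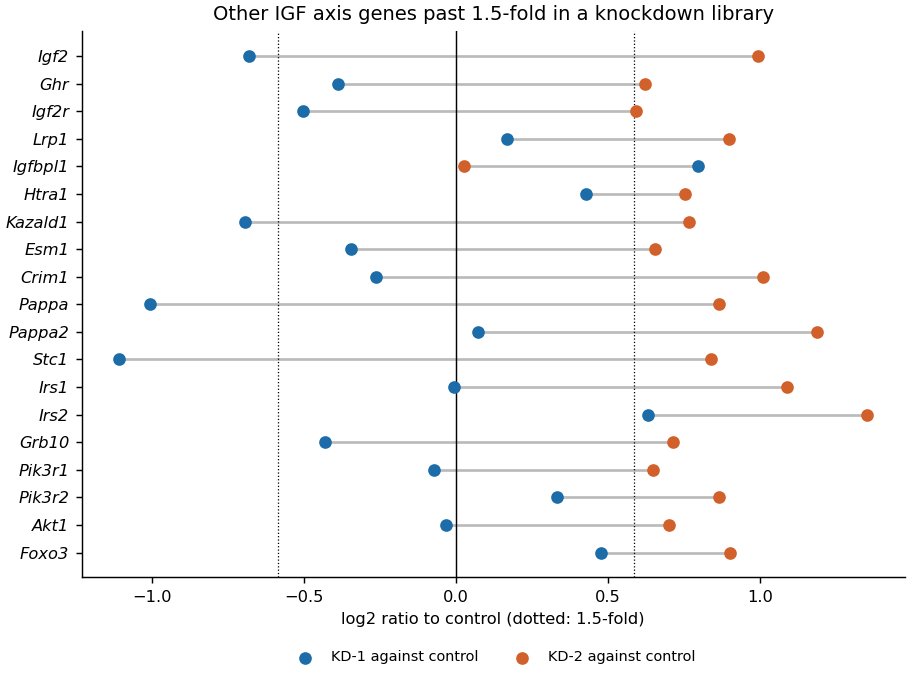
Log2 ratio to control (horizontal axis) in KD-1 and KD-2 for the 19 listed IGF axis genes past 1.5-fold (dotted lines) in a knockdown library with a mean of at least 100 reads; each point is 1 library against the 1 control library. KD-2 lies to the right of KD-1 for 18 of the 19 genes, and Igfbpl1 is the exception.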

How the data were processed

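RNA was measured in 3 libraries. The authors trimmed 50 bp reads with Trim Galore 0.4.1, mapped them with TopHat2 2.1.1 to mm10 (GRCm38), kept reads above a mapping quality limit and deposited the counts of reads on each UCSC known gene, not normalized; the methods name featureCounts and the submitters' notes HTSeq as counter. The 5 summary lines, which name no gene, were left out (23.0% to 25.6% of reads).

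Counts were scaled by upper quartile in edgeR 4.0.16 (R 4.3.3). Ratios carry exact Clopper-Pearson 95% intervals (scipy 1.17.1), which cover counting error only. Both knockdown libraries were compared to control by edgeR's quasi-likelihood test after TMM with Benjamini-Hochberg adjustment over 21164 genes with a read, and by DESeq2 1.42.0 as an alternative. The functions were checked on simulated data. RPKM used library totals and merged exons of GENCODE M21 (basic set), which matched 23376 genes by symbol and 651 by an older symbol.

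Named were the 8 genes, Nup153, listed IGF axis genes past 1.5-fold in a knockdown with a mean of at least 100 reads, and the 3 nearest genes to each member above that mean (1 for Igf1r is not reported here); other names were chosen after their values were seen. Promoters are RefSeq's. Alternatives were TMM, DESeq2's size factors, library totals, another pseudocount, other minimum means and a 2-fold threshold. Members and lists were chosen with earlier results of these data known.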

Additional observations from a re-analysis of the deposited data

Results flagged for a closer look

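Of the 8 genes, 5 lay below control in KD-1 and above it in KD-2, and with 1 library each the difference was not tested. The same held for 19.9% of the 16670 genes and for 17 of the 18 fibroblast markers, whose part was not tested. The log2 ratio of KD-1 to KD-2 was -1.39 for Igf1, -1.08 for Igfbp3, -0.81 for Igfbp5, -2.06 for Igfbp6 and -0.98 for Igfbp7. For Igfbp5 and Igfbp7 the KD-1 ratio to control has a counting interval that holds 0.

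Of the 19 listed IGF axis genes kept for being past the fold with a mean of at least 100 reads, 12 lay on opposite sides of control in the same way. This difference was not tested either. The log2 ratio of KD-1 to KD-2 was -1.68 for Igf2, -1.01 for Ghr, -1.10 for Igf2r, -1.46 for Kazald1, -0.998 for Esm1, -1.27 for Crim1, -1.87 for Pappa, -1.95 for Stc1, -1.10 for Irs1, -1.15 for Grb10, -0.72 for Pik3r1 and -0.73 for Akt1. For Irs1, Pik3r1 and Akt1 the KD-1 interval holds 0. Fibroblast markers had a median of -1.60 in the same comparison, with 17 of 18 past 1.5-fold on the lower side, and their part was not tested.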

How the results depend on the processing

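No paired analysis was possible because each group has 1 library, and leaving out a library leaves no spread to test against. No ratio of the 8 genes or the named list genes that was past the fold turned its direction under the alternatives run. In KD-1, 0 of the 8 genes were higher with TMM, 0 with DESeq2's size factors and 0 above 2-fold (1 as reported), and 2 were lower with DESeq2's size factors and 0 above 2-fold (1 as reported). Above 2-fold, 1 was higher in KD-2 and 3 had less in KD-1 than KD-2 (6 as reported for each). Over all genes, library totals gave 820 lower in KD-2 and 1229 above KD-2 in KD-1. A minimum mean of 1 read gave 2686 higher and 1723 lower in KD-1, 2555 lower in KD-2 and 3490 above KD-2 in KD-1. A minimum of 100 reads gave 479 and 549 for KD-1, 1745 and 1107 in KD-2, and 1389 above KD-2 in KD-1. Above 2-fold, 515 were higher and 255 lower in KD-1, 903 and 309 for KD-2, and 523 and 1316 between KD-1 and KD-2. Fewer or more genes tested set the counts under other minimum means, and the cause of the other shifts was not tested. For both knockdown libraries against control, genes with an adjusted p under 0.05 numbered 2 with upper-quartile scaling, 2 with DESeq2's size factors, 2 with the Wald test of DESeq2 and 0 with a minimum mean of 10 reads (190 at an unadjusted p under 0.05), against 4 as reported. The adjusted p of the 8 genes ranged from 0.9998 to 1 over these settings. Upper-quartile scaling over genes that average at least 10 reads and the comprehensive exon set were chosen after seeing the data; the first put Igf1r past the fold in KD-2 at 0.60. Depth limits Igfbp5, Igfbp6 and Igf1 most, with 74, 127 and 139 reads in KD-1.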
